A study of Rattus norvegicus with 12 samples.

Results

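The circadian clock repressors are genes whose products switch off the transcription that drives the daily clock. They were chosen by name, as every non-control probe whose RefSeq transcript belongs to Per1, Per2, Per3, Cry1, Cry2, Nr1d1, Nr1d2, Ciart, Bhlhe40 or Bhlhe41. The array held 9 of these 10 genes, of 15284 named genes in all, through 15 of 61657 probes, and Bhlhe41 had no probe by this rule. Per3 had 5 probes, Per1 and Cry2 had 2 each, and the others had 1.

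In the mammalian clock the activators BMAL1 and CLOCK bind E-boxes in DNA and raise Per and Cry transcription, and PER and CRY proteins then return to the nucleus and block BMAL1 and CLOCK. A second loop runs through the nuclear receptors REV-ERB alpha and REV-ERB beta, made by Nr1d1 and Nr1d2, which repress Bmal1. Ciart (also called CHRONO) and the DEC factors made by Bhlhe40 and Bhlhe41 add further brakes on the same activators. In the kidney the clock is known to set daily rhythms of tubular salt and water transport.

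Renal cortex was taken from male Sprague-Dawley rats, 5 weeks old at purchase and kept in a light-dark cycle, 24 h after the last of 4 weeks of dosing. The groups were TBA rats killed under isoflurane, vehicle rats killed under isoflurane, TBA rats killed under CO2-O2 at 4:1 and vehicle rats killed under CO2-O2, with 3 rats and 3 one-colour arrays each. TBA is tert-butyl alcohol, a solvent and a metabolite of fuel ethers, given at 1000 mg/kg/day, and the vehicle was water. The clock time of each kill is not given in the sources used here. A difference in kill time between groups therefore cannot be told apart from gas or TBA. Words such as rose, fell or changed describe differences between groups only.

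Between 61.6% and 71.0% of probes were well above background on an array, no spot was saturated, and arrays of 1 group correlated at 0.983 to 0.993. Markers of the proximal tubule S1 and S2 segments, the main cells of the renal cortex, were measured for 7 of 7 genes. The layout of slides overlapped the groups. Slide 3 carried all TBA isoflurane rats and slide 2 all vehicle isoflurane rats together with TBA CO2-O2 rats 1 and 2, and both were scanned on day 2. TBA CO2-O2 rat 3 shared slide 1, scanned on day 1, with every vehicle CO2-O2 rat. TBA and vehicle under isoflurane were thus never on the same slide, so slide and treatment cannot be told apart there. Vehicle rats under the 2 gases were likewise on different slides and days. Only the TBA rats give a comparison of the gases within a day, and that comparison is not within a slide.

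Levels are given as log2 of the processed signal over the 75th percentile of the same array, so that 0 is a probe as bright as that percentile, and levels are compared between rats within a probe and not between genes. For each gene the brightest of its kept probes stood for it, and that probe was well above background on all 12 arrays for each of the 9 genes. A difference is a log2 fold change, given with its limma standard error (SE) over all 12 arrays. A gene was called where the p-value, adjusted over 29603 features by the Benjamini-Hochberg method, was under 0.05.

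Start-site windows show which clock elements lie close to these genes. RefSeq windows of 300 bases on the GRCr8 build, from 250 bases before to 50 bases after the annotated start, were held for 9 of the 10 genes (Cry1 is named only, and Nr1d1 had 2 windows). Both strands were searched for the E-box CACGTG, the E-prime box CACGTT, the D-boxes TTATGTAA and TTACGTAA, the core TAGGTCA of the element bound by ROR and REV-ERB, and the cAMP element TGACGTCA. None of these motifs contains another, and positions count from the annotated start to the motif's first base. Shown here are Ciart, the gene with the widest differences, Per2 and Per3, the genes called below, and Bhlhe40, which has an E-box and the smallest averaged difference between gases. Capitals mark motif matches.
Ciart (GRCr8 chr2:186112197-186112496, minus strand): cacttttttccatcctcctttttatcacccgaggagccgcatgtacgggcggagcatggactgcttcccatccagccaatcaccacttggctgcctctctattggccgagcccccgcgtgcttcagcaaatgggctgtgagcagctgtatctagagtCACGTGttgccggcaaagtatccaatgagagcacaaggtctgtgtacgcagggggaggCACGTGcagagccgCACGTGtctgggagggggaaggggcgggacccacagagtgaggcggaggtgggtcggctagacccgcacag
Per2 (GRCr8 chr9:99496944-99497243, minus strand): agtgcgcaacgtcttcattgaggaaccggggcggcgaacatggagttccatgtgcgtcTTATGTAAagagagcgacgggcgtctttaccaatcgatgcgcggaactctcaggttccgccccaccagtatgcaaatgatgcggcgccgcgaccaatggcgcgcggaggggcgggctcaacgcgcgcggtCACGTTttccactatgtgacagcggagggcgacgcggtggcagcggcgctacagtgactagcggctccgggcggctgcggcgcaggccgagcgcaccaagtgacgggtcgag
Per3 (GRCr8 chr5:166777751-166778050, minus strand): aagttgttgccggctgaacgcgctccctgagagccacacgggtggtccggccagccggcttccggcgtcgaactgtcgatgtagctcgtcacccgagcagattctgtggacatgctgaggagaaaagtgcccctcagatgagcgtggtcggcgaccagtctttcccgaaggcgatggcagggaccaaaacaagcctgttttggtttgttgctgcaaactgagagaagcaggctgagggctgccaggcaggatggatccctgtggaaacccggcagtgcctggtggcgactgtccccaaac
Bhlhe40 (GRCr8 chr4:143174200-143174499, plus strand): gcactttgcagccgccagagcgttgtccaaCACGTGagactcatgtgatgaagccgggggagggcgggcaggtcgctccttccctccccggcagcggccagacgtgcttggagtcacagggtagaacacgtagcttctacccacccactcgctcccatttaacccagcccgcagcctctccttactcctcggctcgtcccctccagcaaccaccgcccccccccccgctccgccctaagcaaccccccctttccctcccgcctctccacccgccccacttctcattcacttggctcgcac

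The Ciart window held 3 E-boxes, at positions -93, -35 and -21. The Per2 window held an E-prime box at -62 and a D-box, the site of the DBP, TEF and HLF factors, at -192. The Per3 window held none of the motifs searched, and the Bhlhe40 window held 1 E-box at -220. Over the 9 genes with a window, an E-box was found for 4 (Ciart, Nr1d1, Bhlhe40 and Bhlhe41), against 6.42% of all 33469 windows. An E-prime box was found for 3 (Per2, Cry2 and Nr1d1), against 4.83% of windows, and the D-box TTATGTAA for 1, against 0.893%. The TTACGTAA form, the TAGGTCA core and the cAMP element were found in none of the windows of these genes, against 0.12%, 2.63% and 1.83% of all windows. These are descriptions of letters in the window and not of bound sites.

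The first question was whether the repressors differed with the gas used at the kill. Per2 and Per3 were higher in the isoflurane rats than in the CO2-O2 rats, by 1.83-fold and 1.48-fold averaged over TBA and vehicle rats. All 9 repressors had a higher mean under isoflurane, as did 51.7% of all features, and the vehicle isoflurane group had the highest mean of the 4 groups for 9 of 9. For Bhlhe40 that lead over vehicle CO2-O2 was slight (-0.33 against -0.34), and it turned to -0.02 with normexp background correction and to -0.0018 with quantile normalization. Ciart had the widest difference, 5.22-fold, with an adjusted p just above the threshold.

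**Figure D1:**
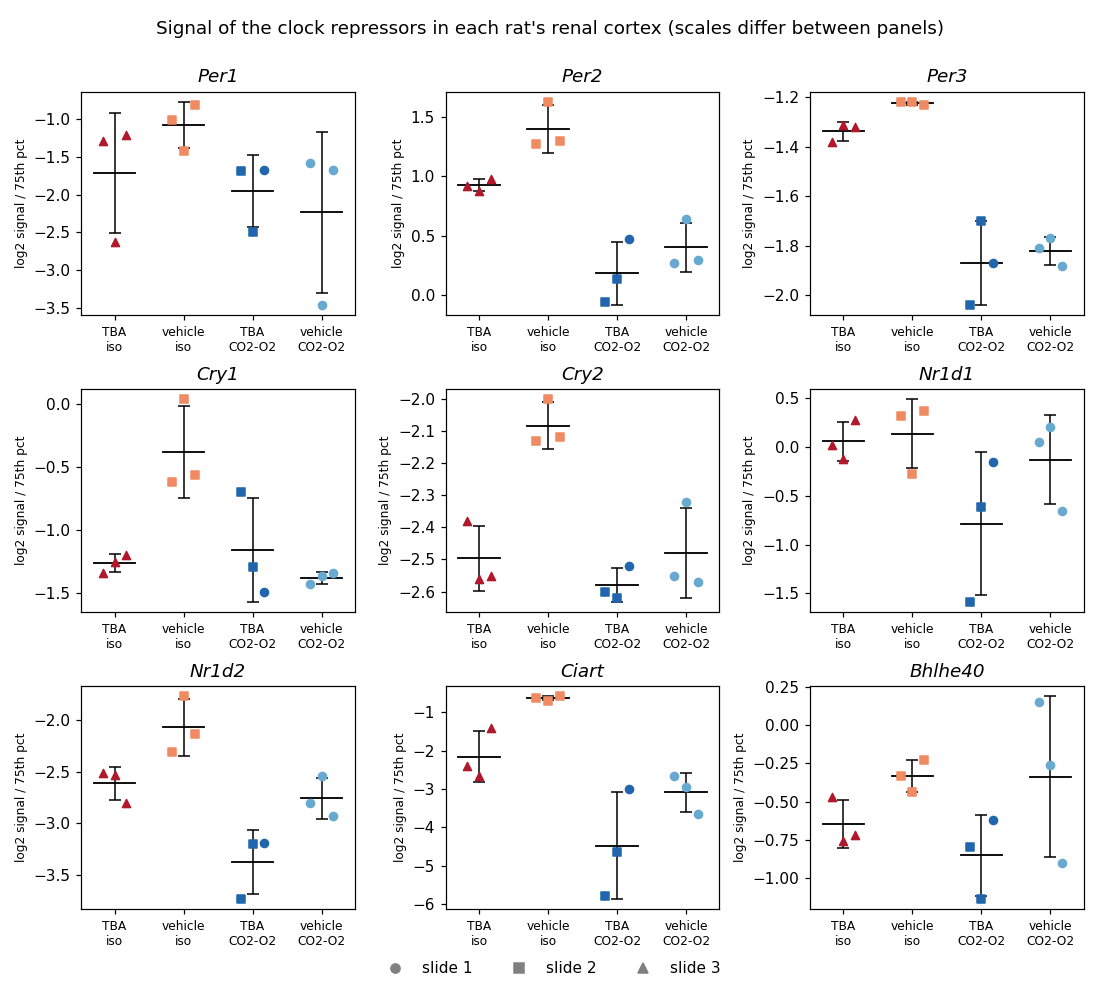
Level of each of the 9 repressors in each rat, as log2 of signal over the array's 75th percentile (y axis, scales differ between panels), for the 4 groups on the x axis (iso, isoflurane). Points are rats, the marker shape gives the slide, and bars are the mean ± SD of 3 rats. The vehicle isoflurane group has the highest mean in every panel, for Bhlhe40 only narrowly (-0.33 against -0.34 in vehicle CO2-O2), and Per2 and Per3 show no overlap between the isoflurane and CO2-O2 rats.

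Per2 is the period gene needed for normal rhythm length and a light-responsive part of the clock. Its level was 0.92, 0.88 and 0.98 in TBA isoflurane rats and 1.27, 1.63 and 1.30 in vehicle isoflurane rats. It was -0.06, 0.13 and 0.47 in TBA CO2-O2 rats and 0.27, 0.64 and 0.29 in vehicle CO2-O2 rats. Every isoflurane rat lay above every CO2-O2 rat. The averaged difference was 0.87 ± 0.11 (SE, limma adjusted p = 0.0167). The difference was 1.00 ± 0.15 in vehicle rats (adjusted p = 0.0557) and 0.75 ± 0.15 in TBA rats (adjusted p = 0.155).

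Per3, a period gene with a smaller part in keeping time, had the narrowest spread within groups when read from its brightest probe. Its level was -1.38, -1.31 and -1.32 in TBA isoflurane rats and -1.22, -1.22 and -1.23 in vehicle isoflurane rats. It was -2.04, -1.70 and -1.87 in TBA CO2-O2 rats and -1.81, -1.77 and -1.88 in vehicle CO2-O2 rats. The 2 gases did not overlap in either treatment. The averaged difference was 0.56 ± 0.06 (limma adjusted p = 0.00792), with 0.60 ± 0.08 in vehicle rats (adjusted p = 0.0366) and 0.53 ± 0.08 in TBA rats (adjusted p = 0.109). The call in vehicle rats was kept under 3 of 10 other settings and in 3 of 12 fits with 1 array left out, and was lost with slide as a random block (adjusted p = 0.0764) or a fixed term (adjusted p = 0.266).

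Ciart encodes a repressor that binds BMAL1. Its level was -2.41, -2.66 and -1.41 in TBA isoflurane rats and -0.63, -0.70 and -0.58 in vehicle isoflurane rats. It was -5.77, -4.65 and -3.01 in TBA CO2-O2 rats and -2.67, -2.95 and -3.64 in vehicle CO2-O2 rats. The isoflurane rats lay above the CO2-O2 rats of the same treatment without overlap, and the TBA CO2-O2 rats were spread most widely (SD 1.39, n = 3). TBA CO2-O2 rats 1 and 2 were dim, with processed signals of 15 and 30, though flagged well above background. The averaged difference was 2.39 ± 0.42 (limma adjusted p = 0.0525). Under 8 other settings this difference ran from 1.54 to 3.85.

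Nr1d2 and Nr1d1 encode the REV-ERB receptors. Nr1d2 stood at -2.51, -2.53 and -2.80 in TBA isoflurane rats and -2.31, -1.76 and -2.13 in vehicle isoflurane rats, against -3.74, -3.20 and -3.19 in TBA CO2-O2 rats and -2.80, -2.54 and -2.93 in vehicle CO2-O2 rats. Its averaged difference between gases was 0.73 ± 0.13 (limma adjusted p = 0.0551). Nr1d1 averaged 0.06 ± 0.20 in TBA isoflurane rats, 0.14 ± 0.36 in vehicle isoflurane rats, -0.78 ± 0.74 in TBA CO2-O2 rats and -0.13 ± 0.46 in vehicle CO2-O2 rats (SD, n = 3 each). The Nr1d1 groups overlapped between gases in vehicle rats and not in TBA rats, and the averaged difference was 0.56 ± 0.25 (adjusted p = 0.292).

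Cry1 and Cry2 encode the cryptochromes, the direct blockers of CLOCK and BMAL1. Cry1 stood at -1.34, -1.25 and -1.20 in TBA isoflurane rats and -0.62, 0.04 and -0.56 in vehicle isoflurane rats, against -0.70, -1.29 and -1.49 in TBA CO2-O2 rats and -1.43, -1.36 and -1.34 in vehicle CO2-O2 rats. The vehicle isoflurane rats thus stood above the 9 other rats, whose group means were -1.26 (TBA isoflurane), -1.16 (TBA CO2-O2) and -1.38 (vehicle CO2-O2). Cry1 differed between gases by 1.00 ± 0.21 in vehicle rats (limma adjusted p = 0.0801) and by -0.11 ± 0.21 in TBA rats (adjusted p = 0.897). Cry2 stood at -2.38, -2.56 and -2.55 in TBA isoflurane rats and -2.13, -2.00 and -2.12 in vehicle isoflurane rats, against -2.60, -2.62 and -2.52 in TBA CO2-O2 rats and -2.55, -2.32 and -2.57 in vehicle CO2-O2 rats. Here too the vehicle isoflurane rats lay above every other rat, and the averaged difference between gases was 0.24 ± 0.06 (adjusted p = 0.106).

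For Per1 and Bhlhe40 the averaged difference between gases was smaller than the pooled SD within groups (0.72 and 0.31). Per1 still did not overlap between gases in vehicle rats (-1.42 to -0.82 under isoflurane, -3.46 to -1.58 under CO2-O2). Bhlhe40 did not overlap between TBA and vehicle rats under isoflurane. Per1, the period gene that also responds fast to light and steroid signals, averaged -1.71 ± 0.80 in TBA isoflurane rats, -1.08 ± 0.30 in vehicle isoflurane rats, -1.95 ± 0.47 in TBA CO2-O2 rats and -2.24 ± 1.06 in vehicle CO2-O2 rats (SD, n = 3 each). Its averaged difference between gases was 0.70 ± 0.37 (limma adjusted p = 0.375). Bhlhe40, whose product DEC1 binds E-boxes as a repressor, averaged -0.65 ± 0.16 in TBA isoflurane rats, -0.33 ± 0.11 in vehicle isoflurane rats, -0.85 ± 0.26 in TBA CO2-O2 rats and -0.34 ± 0.52 in vehicle CO2-O2 rats. The gas difference of Bhlhe40 was 0.10 ± 0.16 (adjusted p = 0.782).

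Averaged over treatments, 2 of 9 repressors passed the test, both higher under isoflurane, while 85 of all 29603 features (0.287%) did in either direction. At an unadjusted p under 0.05 there were 6 of 9, against 17.2% of features. The median difference of the 9 was 0.56, against 0.01 for all features. In vehicle rats all 9 means were higher (51.4% of features), 1 of 9 passed (Per3), against 0.105% of features, and the gases did not overlap for 7 of 9, all higher, against 14.9% of features. There were 6 of 9 at an unadjusted p under 0.05 in vehicle rats, against 18.7% of features. In TBA rats 8 of 9 means were higher (52.4% of features), and 0 of 9 passed in limma, against 0.00676%, with 5 at an unadjusted p under 0.05, against 10.8%. In TBA rats 5 of 9 did not overlap, all higher (Per2, Per3, Nr1d1, Nr1d2 and Ciart), against 7.90% of features.

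Part of the gas comparison can be made within a scan day, but not within a slide. On day 2 the TBA isoflurane rats were on slide 3 and TBA CO2-O2 rats 1 and 2 on slide 2. Slide and gas cannot be told apart there. On day 2 alone, TBA isoflurane rats stood above TBA CO2-O2 rats 1 and 2 by 0.89 for Per2, 0.53 for Per3, 3.05 for Ciart, 0.86 for Nr1d2 and 1.16 for Nr1d1. The day 2 difference was 0.38 for Per1, 0.32 for Bhlhe40, 0.11 for Cry2 and -0.27 for Cry1. When scan day was added to the model, the averaged difference was 1.17 for Per2 (limma adjusted p = 0.0735) and 0.56 for Per3 (adjusted p = 0.129), so that no repressor passed, and 3.85 for Ciart (adjusted p = 0.0554). Only the TBA CO2-O2 group was scanned on both days, so its rat 3 against rats 1 and 2 alone set the scan day term. With 1 array left out, the averaged difference was called in 10 of 12 fits for Per2, 12 of 12 for Per3 and 1 of 12 for Ciart. Without vehicle CO2-O2 rat 3, Per2 gave 0.85 (adjusted p = 0.0596), and without TBA CO2-O2 rat 3, Ciart gave 2.75 (adjusted p = 0.0162).

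**Figure D2:**
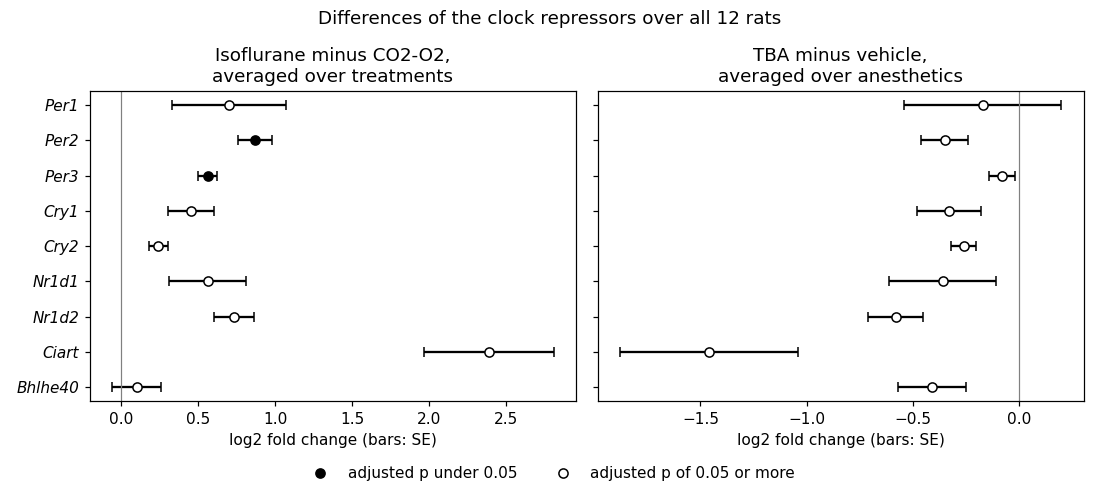
Log2 difference of each repressor averaged over the other factor, for isoflurane minus CO2-O2 and for TBA minus vehicle, with SE bars from limma over 12 arrays. Filled points have an adjusted p under 0.05. Each gene is read from its brightest probe. All 9 differences lie above 0 for isoflurane and below 0 for TBA, and the filled points are Per2 (0.87) and Per3 (0.56) for isoflurane. On the dimmer Per1 probe the TBA difference is 0.17.

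The 5 probes of Per3 could be set against each other, each in its own scale. When every probe was its own feature, the brightest (A_64_P119407) gave an averaged gas difference of 0.56 ± 0.06 (limma adjusted p = 0.0104). The next (A_64_P119405) gave 0.90 ± 0.10 (adjusted p = 0.0116), A_44_P196198 gave 1.11 ± 0.17 (adjusted p = 0.0419) and A_64_P127337, well above background on 11 arrays, gave 1.14 ± 0.33 (adjusted p = 0.148). So 3 of these 4 probes were called, and the brightest had the smallest difference. The fifth probe, A_43_P16143, was well above background on all 3 vehicle isoflurane arrays, on 1 vehicle CO2-O2 array and on none of the TBA arrays. On that probe a bound was set by taking each dim array at the higher of its own signal and its lowest well-measured signal. By this bound, the probe read at least 1.77-fold lower in TBA isoflurane rats than in vehicle isoflurane rats (measured means -5.63 and -4.36). It passed the filter only through the vehicle isoflurane rats, so a lower signal in the other groups was partly fixed by that choice. The value is thus no separate support for a TBA difference. The TBA difference under isoflurane on this probe was -1.27 ± 0.37 and was not called (limma adjusted p = 0.123).

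**Figure D3:**
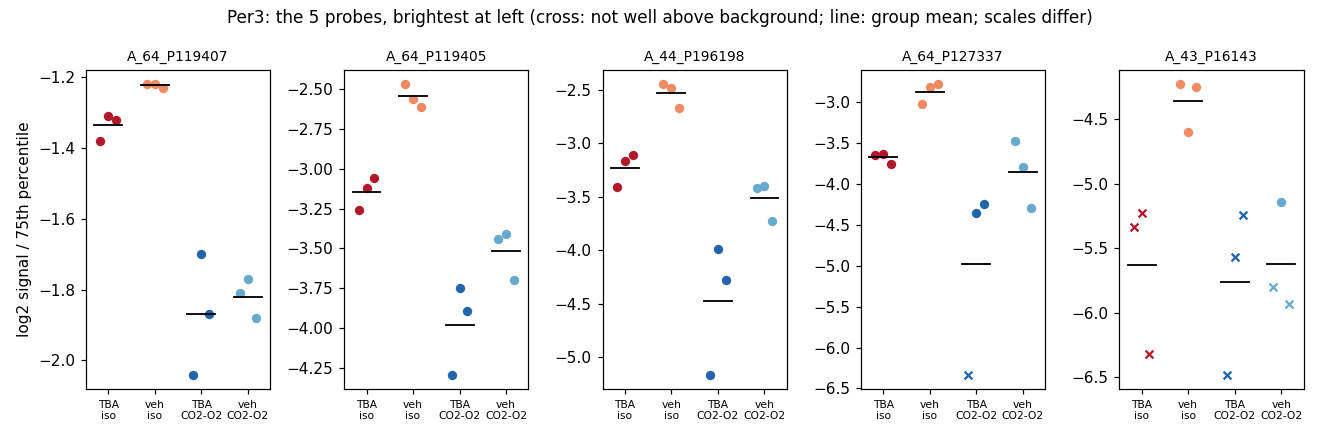
Level of the 5 Per3 probes in each rat, as log2 of signal over the array's 75th percentile (y axis, scales differ), by group on the x axis. Points are rats, crosses are values not well above background and lines are group means. On 4 probes the TBA isoflurane rats lie below the vehicle isoflurane rats by more than on the brightest probe, where the difference is -0.11. The dimmest of these 4, A_43_P16143, passed the filter only through the vehicle isoflurane rats.

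The second Cry2 probe also differed from the first. A_43_P13175 stood at -3.09, -3.19 and -3.15 in TBA isoflurane rats and -2.69, -2.69 and -2.78 in vehicle isoflurane rats, against -3.92, -3.44 and -3.59 in TBA CO2-O2 rats and -3.68, -3.31 and -3.71 in vehicle CO2-O2 rats. Every isoflurane rat lay above every CO2-O2 rat on this probe, and the averaged difference was 0.67 ± 0.09 (limma adjusted p = 0.0275), against 0.24 ± 0.06 on the brightest probe (adjusted p = 0.115 in the same fit by probe). With the mean of a gene's probes in place of the brightest, Cry2 gave 0.45 (adjusted p = 0.0369) and Per3 gave 0.88 (adjusted p = 0.0555).

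The second question was whether TBA changed the repressors. No repressor passed the test in either gas or averaged. On the brightest probes, all 9 nevertheless had a lower mean in TBA rats when averaged over gases, as did 46.1% of features. The median averaged difference was -0.35, against 0.01 for all features, of which 558 (1.88%) were called. At an unadjusted p under 0.05 there were 6 of 9, against 19.0% of features. Nr1d2 came nearest with -0.58 ± 0.13 (limma adjusted p = 0.0559), followed by Cry2 with -0.26 ± 0.06 (adjusted p = 0.0605). The widest averaged difference was that of Ciart, -1.46 ± 0.42 (adjusted p = 0.106). For Per1 the sign depended on the probe. The averaged difference was -0.17 ± 0.37 on the brighter probe and 0.17 ± 0.24 on the dimmer (limma adjusted p = 0.840 and 0.736 in the fit by probe).

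Under isoflurane all 9 repressors had a lower mean in TBA rats (46.4% of features), with a median difference of -0.48, and 0 passed in limma, against 0.395% of features. There were 5 of 9 at an unadjusted p under 0.05, against 17.8%. The TBA rats lay wholly below the vehicle rats for 7 of 9 (Per2, Per3, Cry1, Cry2, Nr1d2, Ciart and Bhlhe40), against 9.68% of features. Cry1 differed by -0.88 ± 0.21 (limma adjusted p = 0.0853), Cry2 by -0.41 ± 0.08 (adjusted p = 0.0698), Per2 by -0.48 ± 0.15 (adjusted p = 0.155) and Ciart by -1.52 ± 0.60 (adjusted p = 0.224). The TBA isoflurane rats were on slide 3 and the vehicle isoflurane rats on slide 2.

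Under CO2-O2, 7 of 9 repressors had a lower mean in TBA rats and Per1 and Cry1 a higher one (lower in 46.4% of features), with a median of -0.22. None passed in limma, against 0.149% of features, and 2 of 9 had an unadjusted p under 0.05, against 14.3%. Only Nr1d2 had TBA rats wholly below vehicle rats, against 9.06% of features, with a difference of -0.62 ± 0.19 (limma adjusted p = 0.203), when each gene was read from its brightest probe. On the Per3 probe A_64_P119405 the TBA rats also lay wholly below the vehicle rats (-4.29, -3.75 and -3.89 in TBA CO2-O2 rats, against -3.44, -3.41 and -3.70 in vehicle CO2-O2 rats). So they did on A_44_P196198 (-5.16, -3.99 and -4.28 in TBA CO2-O2 rats, against -3.42, -3.40 and -3.73 in vehicle CO2-O2 rats). With the mean of its probes, Per3 gave -0.55 in place of -0.05. Within slide 1, TBA CO2-O2 rat 3 differed from the mean of the 3 vehicle rats by -0.43 for Nr1d2, 0.08 for Ciart, 0.07 for Per2, -0.05 for Per3, -0.11 for Cry1 and -0.04 for Cry2. For Ciart the difference over the whole group was -1.39 ± 0.60 (adjusted p = 0.331). The same within-slide difference was -0.02 for Nr1d1, -0.28 for Bhlhe40 and 0.57 for Per1.

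When scan day was added to the model, the averaged TBA difference was -0.72 for Ciart (limma adjusted p = 0.352), -0.49 for Nr1d2 (adjusted p = 0.212) and -0.23 for Cry2 (adjusted p = 0.207). The scan day term was again set by TBA CO2-O2 rat 3 against rats 1 and 2 alone. Without TBA CO2-O2 rat 3, Nr1d2 gave -0.63 (adjusted p = 0.0490) and Ciart gave -1.82 (adjusted p = 0.0244), so both passed. At the level of probes, the second Per3 probe (A_64_P119405) passed, with -0.53 ± 0.10 averaged over gases (adjusted p = 0.0356), while the brightest Per3 probe gave -0.08 ± 0.06 (adjusted p = 0.469).

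Whether the TBA difference itself depended on the gas was tested as an interaction. It passed for 0 of 29603 features in limma (0.00%), while 3578 features (12.1%) and 2 of 9 repressors had an unadjusted p under 0.05. Cry1 had the widest, -1.10 ± 0.30 for the TBA difference under isoflurane minus that under CO2-O2 (unadjusted p = 0.00400, adjusted p = 0.257). Cry2 gave -0.31 ± 0.12 (adjusted p = 0.363). For Ciart the 2 TBA differences stood at -1.52 under isoflurane and -1.39 under CO2-O2, with an interaction of -0.13 ± 0.84 (adjusted p = 0.963). With scan day in the model, the interaction was -1.60 for Ciart and -0.77 for Cry1. These 2 values rest on TBA CO2-O2 rat 3, the only TBA CO2-O2 rat scanned on day 1.

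The order of the groups can be read from the means. Per2, Per3 and Ciart had the same order, with vehicle isoflurane highest, then TBA isoflurane, vehicle CO2-O2 and TBA CO2-O2. For Per2 and Per3 the last 2 of these, TBA CO2-O2 and vehicle CO2-O2, overlapped and differed by less than the larger SD (-0.22 and -0.05 as TBA minus vehicle). For Ciart, TBA CO2-O2 and vehicle CO2-O2 overlapped as well. Nr1d2 had this order too, and its middle neighbours, TBA isoflurane and vehicle CO2-O2, overlapped. For Per1, Nr1d1 and Bhlhe40 no neighbours in the order differed by more than the larger SD. TBA CO2-O2 had the lowest mean for 7 of 9 genes and vehicle CO2-O2 for Per1 and Cry1.

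Rats of a group also differed among themselves. On each gene's brightest probe, the pooled SD within groups was 0.09 for Per3, 0.10 for Cry2, 0.20 for Per2, 0.25 for Nr1d2 and 0.28 for Cry1. It was 0.31 for Bhlhe40, 0.48 for Nr1d1, 0.72 for Per1 and 0.81 for Ciart. In the TBA CO2-O2 group, rat 1 was the lowest of the 3 for 5 of 9 genes, and rat 3, the rat on slide 1, was the highest for 7 of 9. In that group Ciart deviated from the group mean by -1.29 in rat 1 and by 1.47 in rat 3, and Nr1d1 by -0.81 in rat 1 and by 0.63 in rat 3. The part of slide or scan day in this spread was not tested.

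**Figure D4:**
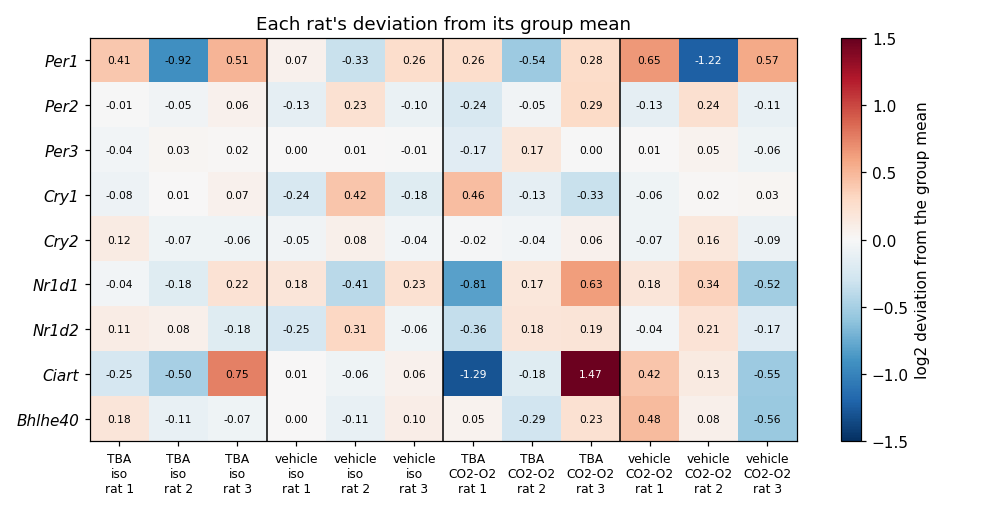
Deviation of each rat from its group mean (log2, colour and printed value) for the 9 repressors, with rats in columns by group. Ciart and Nr1d1 run together in the TBA CO2-O2 rats (-1.29 and -0.81 in rat 1, 1.47 and 0.63 in rat 3), and Per1 is lowest in rat 2 of every group.

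Over the 12 arrays the 36 pairs of repressors had a median Pearson r of 0.53, between -0.08 for Cry1 with Nr1d1 and 0.93 for Per2 with Ciart. After each group's mean was removed, the median was 0.17, between -0.81 for Cry1 with Nr1d1 and 0.86 for Nr1d1 with Ciart. These values describe 12 arrays that share groups and slides. Among 11670 named genes, those most like Per2 over the 12 arrays were Ifrd2 (r = 0.952), Dmap1 (r = 0.947) and Cab39 (r = 0.939). Those most opposed to Per2 were Bmal1 (r = -0.948), Cit (r = -0.942) and Slc45a3 (r = -0.936). For Per3 the most like were Stk35 (r = 0.97), Tecpr1 (r = 0.94) and Tmem192 (r = 0.932), and the most opposed were Wdr3 (r = -0.949), Lgalsl (r = -0.925) and Inpp5f (r = -0.909).

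Bmal1, the activator that the repressors hold in check, ran opposite to Per2. Its level was -0.68, -0.86 and -0.84 in TBA isoflurane rats and -2.68, -3.03 and -2.44 in vehicle isoflurane rats, against 1.51, 0.82 and 0.32 in TBA CO2-O2 rats and -0.54, -0.53 and 0.22 in vehicle CO2-O2 rats. Vehicle isoflurane rats were the lowest and TBA CO2-O2 rats the highest, without overlap with any other group. Bmal1 fell under isoflurane by 2.06 averaged over treatments (SE 0.21, limma adjusted p = 0.00792).

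The other genes of the pathway were taken from lists chosen for their known roles, but with earlier results of these data known. The calls within these lists are thus descriptive. Of the 4 clock activators tested (7 listed), 2 fell under isoflurane, Bmal1 and its relative Npas2 (-0.99 ± 0.14, limma adjusted p = 0.0310), and the same 2 rose with TBA averaged over gases (1.54 ± 0.21 for Bmal1 and 0.88 ± 0.14 for Npas2, adjusted p = 0.0148 and 0.0270). The median of the activators was -0.62 for the gases and 0.60 for TBA. Of 9 clock outputs tested, 2 rose under isoflurane averaged over treatments. These were Tef, a D-box activator (0.64 ± 0.10, adjusted p = 0.0414), and Wee1, a cell cycle kinase (0.51 ± 0.08, adjusted p = 0.0416). Both fell with TBA averaged over gases, Tef by 0.50 (SE 0.10, adjusted p = 0.0427) and Wee1 by 0.38 (SE 0.08, adjusted p = 0.0491). Tspan4, which encodes a tetraspanin, was higher under isoflurane in vehicle rats (0.61 ± 0.09, adjusted p = 0.0490) and lower with TBA under isoflurane (-0.53 ± 0.09, adjusted p = 0.0460).

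Of 10 genes tested that act on the repressor proteins or bind them, among them kinases, ubiquitin ligases, a phosphatase subunit and a deubiquitinase, none was called for gas or TBA, with medians of -0.05 and -0.01. Of 9 immediate early and CREB-responsive genes tested, Sik1, a kinase that restrains CREB coactivators, rose under isoflurane (0.59 ± 0.08, limma adjusted p = 0.0267) and fell with TBA by 0.49 (SE 0.08, adjusted p = 0.0292). Fos, an early transcription factor, rose with TBA (0.80 ± 0.14, adjusted p = 0.0291). None of 8 glucocorticoid-responsive genes and none of 17 clock-linked renal transport genes was called for gas or TBA averaged over the other factor.

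Cell markers were set beside these results, because in a piece of tissue fewer cells of a type and less RNA per cell cannot be told apart. Of 61 markers in 14 lists, none was called in the comparison of gases, against 0.287% of features for the averaged difference. Directions are given below only for lists whose markers all went the same way, and the remaining lists were mixed. Of all features, 48.3% had a lower averaged mean under isoflurane. All 5 leukocyte markers tested were lower under isoflurane in the averaged means, with a median of -0.45, and so were all 5 markers of the proximal tubule S3 segment, with a median of -0.45. The means were also lower for 5 of 5 fibroblast markers (median -0.14), 5 of 5 thick ascending limb markers (median -0.09) and 3 of 3 red cell markers (median -0.32). They were lower for 2 of 2 distal convoluted tubule markers (median -0.03) and higher for 4 of 4 principal cell markers (median 0.15). The mean leukocyte level ran between -2.74 and -1.71 in TBA isoflurane rats, -2.62 and -2.29 in vehicle isoflurane rats, -2.10 and -1.85 in TBA CO2-O2 rats, and -1.90 and -1.47 in vehicle CO2-O2 rats. The mean S3 level ran between 2.48 and 3.72 in TBA isoflurane rats, 2.51 and 3.08 in vehicle isoflurane rats, 2.72 and 3.49 in TBA CO2-O2 rats, and 3.47 and 3.66 in vehicle CO2-O2 rats. For TBA averaged over gases 3 of 61 markers were called, against 1.88% of features. Slc5a12 and Slc22a8 of the S1 and S2 segments were higher (0.68 ± 0.08 and 0.38 ± 0.06, limma adjusted p = 0.00986 and 0.0292). Cldn10 of the thick ascending limb was lower (-0.40 ± 0.08, adjusted p = 0.0417). Of all features, 53.9% had a higher mean with TBA averaged over gases and 46.1% a lower one. In the means for TBA averaged over gases, 7 of 7 S1 and S2 markers were higher (median 0.19), 5 of 5 podocyte markers were higher (median 0.11) and 5 of 5 thick ascending limb markers were lower (median -0.17). Also higher were 3 of 3 red cell (median 0.15), 3 of 3 skeletal muscle (median 0.24) and 2 of 2 distal convoluted tubule markers (median 0.25). The skeletal muscle markers were dim, with a mean level between -4.84 and -4.65 in TBA isoflurane rats and between -5.31 and -4.56 in vehicle isoflurane rats. Lower were 3 of 3 adipocyte markers (median -0.11). The part of these markers in the repressor values was not tested.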

How the data were processed

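Total RNA from the renal cortex of 12 rats was labelled with Cy3 and hybridised to one-colour Agilent arrays, per the labels' protocols. Per the file headers, the deposited scanner files come from Agilent Feature Extraction 10.7.1.1 and hold an intensity that is background-subtracted within an array and not scaled between arrays. The submitters' deposited series table holds a ratio of that signal to the array's 75th percentile, a scale found from the values (column medians 0.101 to 0.107). It was used as an alternative, with no centring found. All 12 columns of the table matched a scanner file of their own group but of a different replicate number, and the scanner files' numbers are used.

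Rats were grouped by the labels' treatment and gas. Probes were named through RefSeq (GRCr8, names only): 27460 of 61657 had 1 symbol, 0 several and 34197 none. Spots that were controls or flagged as outliers were dropped. The filter kept 40216 probes that, in 1 or more groups, were well above background on every array. The brightest kept probe stood for a gene or, where no symbol was found, for a transcript name. This gave 29603 features, 11689 with a symbol and 17914 without, so shares over all features are not shares of named genes. Log2 of the processed signal minus the array's 75th percentile was fitted with 1 mean per group in limma 3.58.1 (R 4.3.3), and p-values were adjusted by Benjamini-Hochberg over all features with a threshold of 0.05. The fit was checked on simulated arrays. The 9 repressors and the pathway and marker lists were chosen with earlier results of these data known, and every repressor is named. Of each other list, only called genes are named (1 list is not reported here), and for Per2 and Per3 the 3 most and 3 least correlated genes. The labels describe the rats as biological replicates, and the number of arrays limits the precision. Alternatives were normexp background correction, quantile normalization, the submitters' table, no filter, averaging the probes of a gene, a random (statmod 1.5.0) or fixed slide term, a block for replicate number, a fit on the compared arrays alone, and leaving out each array. Scan day as a term and scan day 2 alone were added after seeing the data. Only the TBA CO2-O2 group lies on both scan days and on more than 1 slide. A fixed term for day or slide thus rests on its rat 3 against rats 1 and 2.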

Additional observations from a re-analysis of the deposited data

How the results depend on the processing

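The number of repressors called moved in 4 comparisons. For the gases in vehicle rats (1 called, Per3) it was 4 with normexp (Per2, Per3, Cry1 and Ciart), 2 with quantile normalization, and 0 with no filter, averaged probes, a random or fixed slide term, a fit on the compared arrays alone or scan day as a term, and 0 to 2 with 1 array left out. For the gases averaged (2 called, Per2 and Per3) it was 3 with normexp (Per2, Per3 and Ciart), 2 with averaged probes (Per2 and Cry2, not Per3), 0 with scan day as a term and 1 to 3 with 1 array left out. For TBA it was 2 with normexp under isoflurane (Cry1 and Ciart) and 1 averaged (Ciart), where leaving out 1 array gave 0 to 2. Over all features the calls ran from 12 to 234 for the gases averaged (85 in the report) and from 63 to 995 for TBA averaged (558). Normexp raised them to 1334 for TBA under isoflurane (117 in the report) and to 868 for the gases in vehicle rats (31).

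The labels give no link between rats with the same replicate number. Over 18 such pairs, deviations from the group means correlated between -0.13 and 0.13, with 3 pairs over 0.1. These correlations cover all genes together, so they cannot decide whether such rats shared a factor acting on a few genes. With the replicate block the averaged gas difference called 2 repressors and that in vehicle rats called 0 (Per3 0.60, limma adjusted p = 0.0722), with TBA averaged at 0.

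Among 63 pairs of a repressor and a comparison, 32 of the values under alternatives turned sign, and none of these pairs was called in the report. Under CO2-O2 with slide or scan day as a fixed term, TBA gave 0.07 for Per2, -0.11 for Cry1 and 0.08 for Ciart. These are the values of TBA CO2-O2 rat 3 alone against the vehicle mean, because that rat alone shared a slide and day with the vehicle rats. The gas difference of Bhlhe40 in vehicle rats was -0.02 with normexp and -0.0018 with quantile normalization. The interaction with scan day as a term, which rests on the same TBA CO2-O2 rat, was -0.06 for Nr1d1, -0.11 for Nr1d2 and -0.03 for Bhlhe40. With 1 array left out, TBA under CO2-O2 ran from -0.33 to 0.61 for Per1, -0.14 to 0.03 for Per3 and -0.01 to 0.39 for Cry1, and under isoflurane from -0.28 to 0.04 for Nr1d1. TBA averaged ran from -0.48 to 0.06 for Per1. The gas difference in TBA rats ran from -0.03 to 0.70 for Per1 and -0.27 to 0.12 for Cry1, and that of Bhlhe40 from -0.28 to 0.25 in vehicle rats and -0.04 to 0.22 averaged. The interaction ran from -0.15 to 0.02 for Per3, -0.11 to 0.23 for Nr1d2, -0.78 to 0.60 for Ciart and -0.04 to 0.48 for Bhlhe40. The cause of the changes under the other settings was not tested. Slide as a fixed term could not be fitted for the averaged comparisons, the interaction, TBA under isoflurane or the gases in TBA rats, and 3 rats a group leave small differences undecided.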

Other observations

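Per1 was lowest in rat 2 in 4 of 4 groups on the probe that stood for it. Its level in rat 2 deviated from the group mean by -0.92 in TBA isoflurane rats, -0.33 in vehicle isoflurane rats, -0.54 in TBA CO2-O2 rats and -1.22 in vehicle CO2-O2 rats. On the dimmer Per1 probe (A_64_P300243) rat 2 was again the lowest in TBA isoflurane rats (-4.83, against -4.41 and -4.21 in rats 1 and 3) and in vehicle CO2-O2 rats (-5.81, not well above background, against -4.95 and -4.30). It was the middle of the 3 vehicle isoflurane rats (-4.07, against -4.40 and -3.72), and in TBA CO2-O2 rats it stood at -4.34, against -4.09 and -4.34. Whether the rats numbered 2 shared a factor acting on Per1 was not tested.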
